A study of Mus musculus with 2 samples.

Results

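The CC chemokines Ccl2, Ccl3, Ccl4, Ccl5, Ccl6, Ccl7, Ccl11, Ccl12, Ccl17 and Ccl20 were described by their cellular source in dorsal and ventral tissue from the cardiac base of newborn mice. These 10 of the 28692 measured genes were chosen by name, with earlier results of these data known. Their counts beside those of all genes are therefore descriptive. They were followed in barcodes with at least 8000 UMIs (unique molecular identifiers, each standing for 1 captured transcript) of which at most 20% were mitochondrial, which gave 8926 dorsal and 10649 ventral cells. The study dissected the hearts of 3-day-old C57Bl6 mice of both sexes. Its dorsal domain held the pulmonary veins, the sinoatrial node and the cardiac ganglia, and its ventral domain held the outflow tract base with the proximal aorta and the pulmonary artery. Cells of 15 hearts were pooled by domain, grown attached to a dish for 5 days, released with trypsin and sequenced as 1 single-cell library per domain. Neither group received a treatment or carried an allele, so the groups differed by domain alone as far as the labels say. Every value below is therefore a single-library value from cultured and pooled cells. No test between domains was possible, and differences between dissections, cultures and library preparations cannot be told apart from differences between domains.

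Chemokines are small secreted proteins that guide leukocytes along concentration gradients by binding G protein-coupled receptors. In CC chemokines the first pair of conserved cysteines stands side by side. Ccl2, Ccl7 and Ccl12 draw monocytes through Ccr2, Ccl3 and Ccl5 act on Ccr1, Ccl4 draws several kinds of leukocyte, Ccl11 draws eosinophils through Ccr3, Ccl17 acts on Ccr4 of T cells, Ccl20 acts on Ccr6, and Ccl6 is a rodent chemokine of myeloid cells. In the heart, resident macrophages and activated fibroblasts are known sources of such signals.

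The members are printed as 42 bases of coding sequence around the codons for the adjacent cysteines, because this motif defines the family and because the stretches show how far the transcripts differ. Capitals mark the codons of the cysteine pair, read 5′ to 3′ on the coding strand from GENCODE M21 transcripts.
Ccl2: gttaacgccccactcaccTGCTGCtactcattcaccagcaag
Ccl7: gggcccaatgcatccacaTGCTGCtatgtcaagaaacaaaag
Ccl12: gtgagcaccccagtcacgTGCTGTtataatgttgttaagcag
Ccl11: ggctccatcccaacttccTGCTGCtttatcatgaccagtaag
Ccl3: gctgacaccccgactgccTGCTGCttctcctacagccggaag
Ccl4: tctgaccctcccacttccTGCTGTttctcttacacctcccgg
Ccl5: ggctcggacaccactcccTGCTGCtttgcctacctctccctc
Ccl6: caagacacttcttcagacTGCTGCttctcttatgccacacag
Ccl17: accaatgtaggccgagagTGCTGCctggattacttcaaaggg
Ccl20: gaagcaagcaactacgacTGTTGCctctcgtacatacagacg
Identity between these windows ran from 28.6% to 69% of bases, the highest value being that of Ccl3 and Ccl4. Over whole transcripts the longest run of bases shared by any pair of members was 23, between Ccl2 and Ccl7.

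In GRCm38 with GENCODE M21, 8 members lie on chromosome 11 in 2 blocks. The first block runs from Ccl2 (chr11:82035571-82037453) through Ccl7 (chr11:82045712-82047525) and Ccl11 (chr11:82057823-82062955) to Ccl12 (chr11:82101845-82103400), all on the plus strand, with 8.26 kb between Ccl2 and Ccl7. The second holds Ccl5 (chr11:83525778-83530518), Ccl6 (chr11:83587882-83593087) and Ccl3 (chr11:83647844-83649355) on the minus strand and Ccl4 (chr11:83662584-83664683) on the plus strand. Ccl17 (chr8:94810453-94812036) and Ccl20 (chr1:83116766-83119167) lie elsewhere, both on the plus strand. Each library was counted over whole gene models from 3′ ends, and since the values were not scaled by length, the levels of different genes were not ranked.

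The cells held 229117951 dorsal and 253103590 ventral UMIs, with medians of 22774 and 21462 per cell. Cells were clustered without any chemokine or chemokine receptor gene, and clusters were named from marker lists. Macrophage-like cells numbered 196 dorsal (2.2%) and 131 ventral (1.23%), and all 14 macrophage markers passed in each library. Mesenchymal cells, meaning fibroblast-like and mural-like clusters together, numbered 8032 (90%) and 9049 (85%). Summed macrophage markers stood at 23192 and 30012 CPM (UMIs per 1000000 of the group's UMIs) in macrophage-like cells against 58.4 and 44.2 CPM in mesenchymal cells. Cardiomyocyte-like cells were few for a heart sample, at 48 and 31. The dorsal mesenchyme lay in clusters 0, 1, 2, 4, 5, 6, 7, 12, 14 and 15 and the ventral in clusters 8, 16, 17, 19, 20, 23 and 24, so the compared mesenchymal classes did not share a cluster of 50 or more cells. Of the cell barcodes, 22 occurred in both libraries, where independent draws would give 14.

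Fibroblast markers were also present in the macrophage-like cells, at 4642 dorsal and 3234 ventral CPM against 15612 and 11367 CPM in mesenchymal cells. The 121 dorsal and 91 ventral macrophage-like cells with under 0.25% fibroblast-marker UMIs had 520 and 422 CPM. These are called low-fibroblast macrophages below, a split made after the values were seen, and 18 dorsal and 12 ventral cells lay within 2-fold of that limit. The doublet caller Scrublet marked 0% of dorsal cells by its own threshold, so the 7.14% with the highest scores were taken. They included 36 of the remaining 75 dorsal macrophage-like cells. By its threshold Scrublet marked 20 of the remaining 40 ventral ones. The median depths of these 75 and 40 cells were 59237 and 42792 UMIs. Free RNA was measured in barcodes with 1 to 100 UMIs, called cell-free below. Intervals are 95% and cover counting error only.

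Summed over all cells, most members were higher on the dorsal side and Ccl17 stood on the ventral side. Ccl2 had 3258 dorsal and 1197 ventral CPM, a 2.72-fold dorsal excess. Ccl7 had 1488 and 379 CPM, a 3.92-fold excess. Ccl6 showed a wider gap, with 300 dorsal and 34.4 ventral CPM, or 8.72-fold. Ccl12 stood at 38.9 and 8.84 CPM (4.4-fold), Ccl3 at 32.7 and 11.9 CPM (2.74-fold) and Ccl4 at 33.5 and 14 CPM (2.39-fold). The reverse held for Ccl17, at 0.869 dorsal and 23.3 ventral CPM, a 26.9-fold ventral excess. Ccl20 was nearer to even, at 28.4 and 40.1 CPM, 1.41-fold higher in the ventral library. With 20 CPM in either library as the minimum, 8 members qualified. Of these, 6 were dorsal-high, meaning a dorsal excess of 2-fold or more, as were 4.69% of all 5821 qualifying genes. The 1 ventral-high member, Ccl17, stood beside 5.12% of genes. The median log2 ratio of dorsal over ventral was 1.45 for these 8 and 0.01 for all qualifying genes. Ccl11 and Ccl5 lay under the minimum, with 2033 dorsal against 17 ventral UMIs for Ccl11 and 804 against 385 for Ccl5.

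The members fell into 3 kinds by the cells that held their UMIs. Ccl3, Ccl4, Ccl6 and Ccl12 came almost wholly from macrophage-like cells. Mesenchymal cells held most UMIs of Ccl2, Ccl7, Ccl11, Ccl17 and Ccl20. In the ventral library mesothelial-like cells joined them for Ccl2, Ccl7 and Ccl20. The dorsal library had 8 mesothelial-like cells and the ventral one 1085, so this class was not compared between domains. Mesenchymal cells also held 89.8% of all dorsal and 82.4% of all ventral UMIs. A large mesenchymal share alone therefore does not set Ccl2 or Ccl7 apart. Ccl5 came from a handful of cells of several classes.

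**Figure D1:**
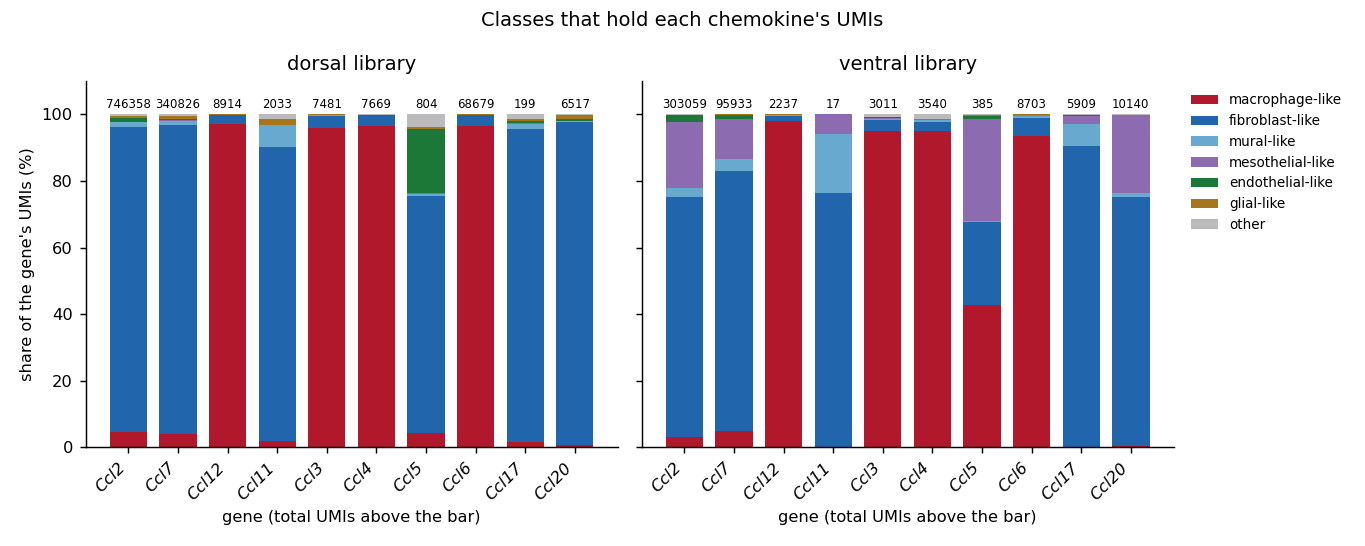
Share of each gene's UMIs (y axis, percent) held by each cell class in the dorsal (left) and ventral (right) library, with the gene's total UMIs above its bar. Macrophage-like cells hold 93.5% to 98.1% of the UMIs of Ccl12, Ccl3, Ccl4 and Ccl6 in both libraries, and at most 4.9% for Ccl2, Ccl7, Ccl17 and Ccl20.

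Ccl12, a monocyte attractant of the Ccr2 group, had 97.2% of its dorsal and 98.1% of its ventral UMIs in macrophage-like cells, which were 2.2% and 1.23% of cells. Its level in the dorsal library was 951 CPM in macrophage-like and 1.16 CPM in mesenchymal cells, an 819-fold gap (log2 9.68, 9.49 to 9.87). In the ventral library it was 555 against 0.177 CPM, a 3130-fold gap resting on 37 mesenchymal UMIs (log2 11.61, 11.14 to 12.12). Ccl2, Ccl7 and Ccl11 of the same chromosomal block did not share this restriction. Ccl8, which is not a member and lies 11.8 kb from Ccl12, was also higher in macrophage-like cells, as given below.

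The macrophage inflammatory proteins Ccl3 and Ccl4 had the same source. Ccl3 stood at 787 CPM in dorsal macrophage-like and 1.41 CPM in dorsal mesenchymal cells, and at 724 against 0.504 CPM in the ventral library, gaps of 558-fold and 1438-fold. Ccl4 stood at 813 against 1.17 CPM in the dorsal and 850 against 0.556 CPM in the ventral library, gaps of 697-fold and 1527-fold. Ccl6 was at 7273 against 11 CPM in the dorsal and 2058 against 2.5 CPM in the ventral library, gaps of 663-fold and 824-fold. Each of the 4 genes was thus separated by source in both libraries.

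The traces of these 4 genes outside macrophage-like cells were set beside free RNA. Mesenchymal levels were 3.9% of the cell-free level for Ccl12, 5.26% for Ccl3, 4.23% for Ccl4 and 4.4% for Ccl6 in the dorsal library. In the ventral library they were 1.82%, 2.79%, 3.14% and 5.32%, in the same order. Ccl6 showed a similar low level in every dorsal cluster of 50 or more cells other than the macrophage-like one, from 6.76 to 16.6 CPM over 12 clusters, and from 0.87 to 3.71 CPM over 11 ventral clusters. A few mesenchymal cells held more. In the dorsal library 11 cells with 10 or more Ccl6 UMIs held 155, and 1 cell had 13 Ccl3 UMIs. In the ventral library 1 cell had 19 Ccl6 UMIs. For Ccl12 and Ccl4 no mesenchymal cell of either library had 10 or more. Whether the mesenchymal values of these genes were free RNA or expression was not tested.

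Shares of cells with a UMI separated the sources too, after each cell was thinned to 8000 UMIs. Ccl6 was detected in 99% of dorsal and 92.4% of ventral macrophage-like cells, against 8.55% and 1.87% of mesenchymal cells. Ccl3 was detected in 81.1% and 80.2% against 0.984% and 0.398%. Ccl4 was detected in 75.5% and 75.6% against 0.896% and 0.442%. Ccl12 was detected in 64.8% (57.7 to 71.5) and 64.9% (56.1 to 73) against 1.06% and 0.133%. Without thinning the macrophage-like shares were 100% and 96.9% for Ccl6, 96.4% and 93.9% for Ccl3, 89.8% and 87% for Ccl4, and 83.7% and 82.4% for Ccl12. Median depths before thinning were 43244 and 27578 UMIs in macrophage-like cells and 22946 and 20978 in mesenchymal cells.

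**Figure D2:**
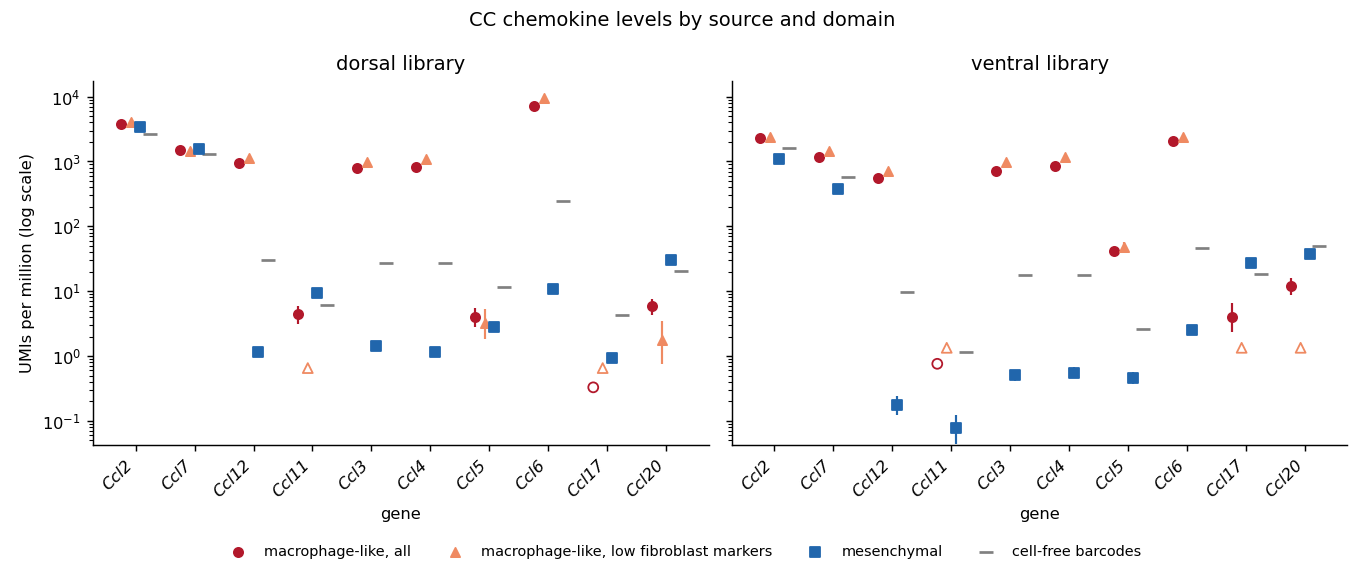
Level of each member (y axis, CPM, log scale) in macrophage-like cells, low-fibroblast macrophages, mesenchymal cells and cell-free barcodes of each library. Bars are 95% counting intervals and open symbols mark 3 UMIs or fewer, drawn at the level of 3 UMIs. Ccl12, Ccl3, Ccl4 and Ccl6 are separated by 558-fold to 3130-fold between macrophage-like and mesenchymal cells, whereas Ccl2 and Ccl7 lie close together in the dorsal library.

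Ccl2 and Ccl7, the monocyte chemoattractants at the start of the first block, were present in macrophage-like and mesenchymal cells alike. In the dorsal library Ccl2 stood at 3788 CPM in macrophage-like and 3371 CPM in mesenchymal cells, a 1.12-fold difference. Ccl7 stood at 1504 and 1558 CPM, a log2 ratio of -0.05 that became 0.14 with TMM scaling, so its direction was not settled. In the ventral library both genes were higher in macrophage-like cells, Ccl2 at 2306 against 1089 CPM (2.12-fold, or log2 0.98 without mural-like cells) and Ccl7 at 1190 against 375 CPM (3.17-fold). Macrophage-like cells held 4.62% of dorsal and 3.01% of ventral Ccl2 UMIs, and 4.02% and 4.9% of Ccl7 UMIs. Their shares of all UMIs were 3.98% dorsal and 1.56% ventral. Mesenchymal cells held 92.9% of the dorsal and 74.9% of the ventral Ccl2 UMIs, beside 89.8% and 82.4% of all UMIs.

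The source comparison by counts gave 7 members at 20 CPM or more in the dorsal library, of which 4 exceeded 2-fold in favour of macrophage-like cells (12.4% of all genes at the minimum) and 1, Ccl20, in favour of mesenchymal cells (15.3% of genes). In the ventral library 9 members reached the minimum, of which 7 exceeded 2-fold in favour of macrophage-like cells (14.7% of genes) and 2, Ccl17 and Ccl20, in favour of mesenchymal cells (16.6% of genes). The median log2 ratio of macrophage-like over mesenchymal was 9.12 for the dorsal and 6.49 for the ventral members, against -0.21 and -0.08 for all genes. The counts were the same with low-fibroblast macrophages, where 15.7% and 22.5% of dorsal genes and 17.6% and 22.1% of ventral genes passed in the same directions.

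Within mesenchymal cells, Ccl2 had a 3.1-fold and Ccl7 a 4.15-fold dorsal excess, at 3371 against 1089 CPM and 1558 against 375 CPM. They were the 2 dorsal-high members among 4 at the minimum (4.91% of all genes were dorsal-high), and Ccl17 was the 1 ventral-high member (5.36% of genes). The median mesenchymal cell had 28.6 Ccl2 UMIs per 10000 dorsally and 1.69 ventrally. Thinned cells with a Ccl2 UMI made up 95.1% of dorsal and 65.1% of ventral mesenchymal cells, and the Ccl7 shares were 89.5% and 50%. Glial-like cells, set beside them as a class outside the mesenchyme, gave 76.9% and 48.7% for Ccl2 and of 51.8% and 16.9% for Ccl7, at median depths of 13261 and 17412 UMIs before thinning. The Ccl2 level in cell-free barcodes was 2697 dorsal and 1621 ventral CPM, and that of Ccl7 was 1325 and 576 CPM. Dorsal mesenchymal cells lay above the cell-free level, at 125% for Ccl2 and 118% for Ccl7. Ventral ones stood at 67.2% and 65.1% of it, but with cell-free barcodes limited to 30 UMIs the ventral cell-free levels were 1049 and 375 CPM, beside 1089 and 375 CPM in mesenchymal cells. How much of the ventral signal was free RNA was not tested. In ventral cluster 8 the thinned Ccl2 share was 41% (37.1 to 45), an interval that overlapped that of ventral glial-like cells (41.5 to 56). Among those glial-like cells, 13 with 10 or more Ccl2 UMIs held 380.

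Ccl2 and Ccl7 also varied among mesenchymal clusters. Dorsal clusters ran from 971 CPM of Ccl2 in cluster 7, named fibroblast-like but with Rgs5 among its leading genes beside Cxcl15 and Itih4, to 6975 CPM in mural-like cluster 2, whose 57 cells were led by Ccl11, the T cell receptor gene Trac and the pericyte gene Rgs5. Their median was 3138 CPM over 10 clusters. Ventral clusters ran from 130 CPM in mural-like cluster 8, led by Sost and Igfbp2, to 1900 CPM in cluster 24, led by Gpx3 and Hsd11b1, with a median of 683 CPM over 7 clusters. The ranges of the domains overlapped. Ccl7 ran from 404 to 3620 CPM in dorsal and from 23.3 to 679 CPM in ventral mesenchymal clusters, with the lowest and highest values in those same 4 clusters. The mural markers Acta2 and Rgs5 stood at 3862 and 362 CPM in dorsal cluster 7 and at 3826 and 483 CPM in dorsal cluster 2. Other mural markers set these clusters apart. Notch3 stood at 12.4 CPM in cluster 7 against 146 CPM in cluster 2, Mcam at 22.5 against 98.5 CPM and Kcnj8 at 27.9 against 97.2 CPM. Tagln, Abcc9 and Pdgfrb were also higher in cluster 2. Myh11 (268 against 184 CPM) and Cnn1 (237 against 76.4 CPM) were higher in cluster 7.

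The proportion of Ccl2 to Ccl7 differed among classes and also among mesenchymal clusters. There were 2.16 Ccl2 UMIs for each Ccl7 UMI in dorsal and 2.9 in ventral mesenchymal cells, and 2.77 and 1.65 in low-fibroblast macrophages. Endothelial-like cells had 5.6 and 6.85, at 3572 and 2027 CPM of Ccl2 and 638 and 296 CPM of Ccl7. Ventral mesothelial-like cells, which line the heart surface, had 5.07, at 1826 CPM of Ccl2 and 360 CPM of Ccl7, and held 19.7% of the ventral Ccl2 UMIs. All macrophage-like cells had 2.52 dorsally and 1.94 ventrally. Dorsal mesenchymal clusters ran from 1.7 in cluster 14 to 3.57 in cluster 12, and ventral ones from 2.07 in cluster 23 to 5.58 in cluster 8. These ranges held the dorsal macrophage-like and the ventral mesothelial-like values, but not the ventral macrophage-like or the endothelial-like ones. The classes of a library thus did not share 1 proportion of the 2 transcripts, whatever their lengths, and neither did the mesenchymal clusters.

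**Figure D3:**
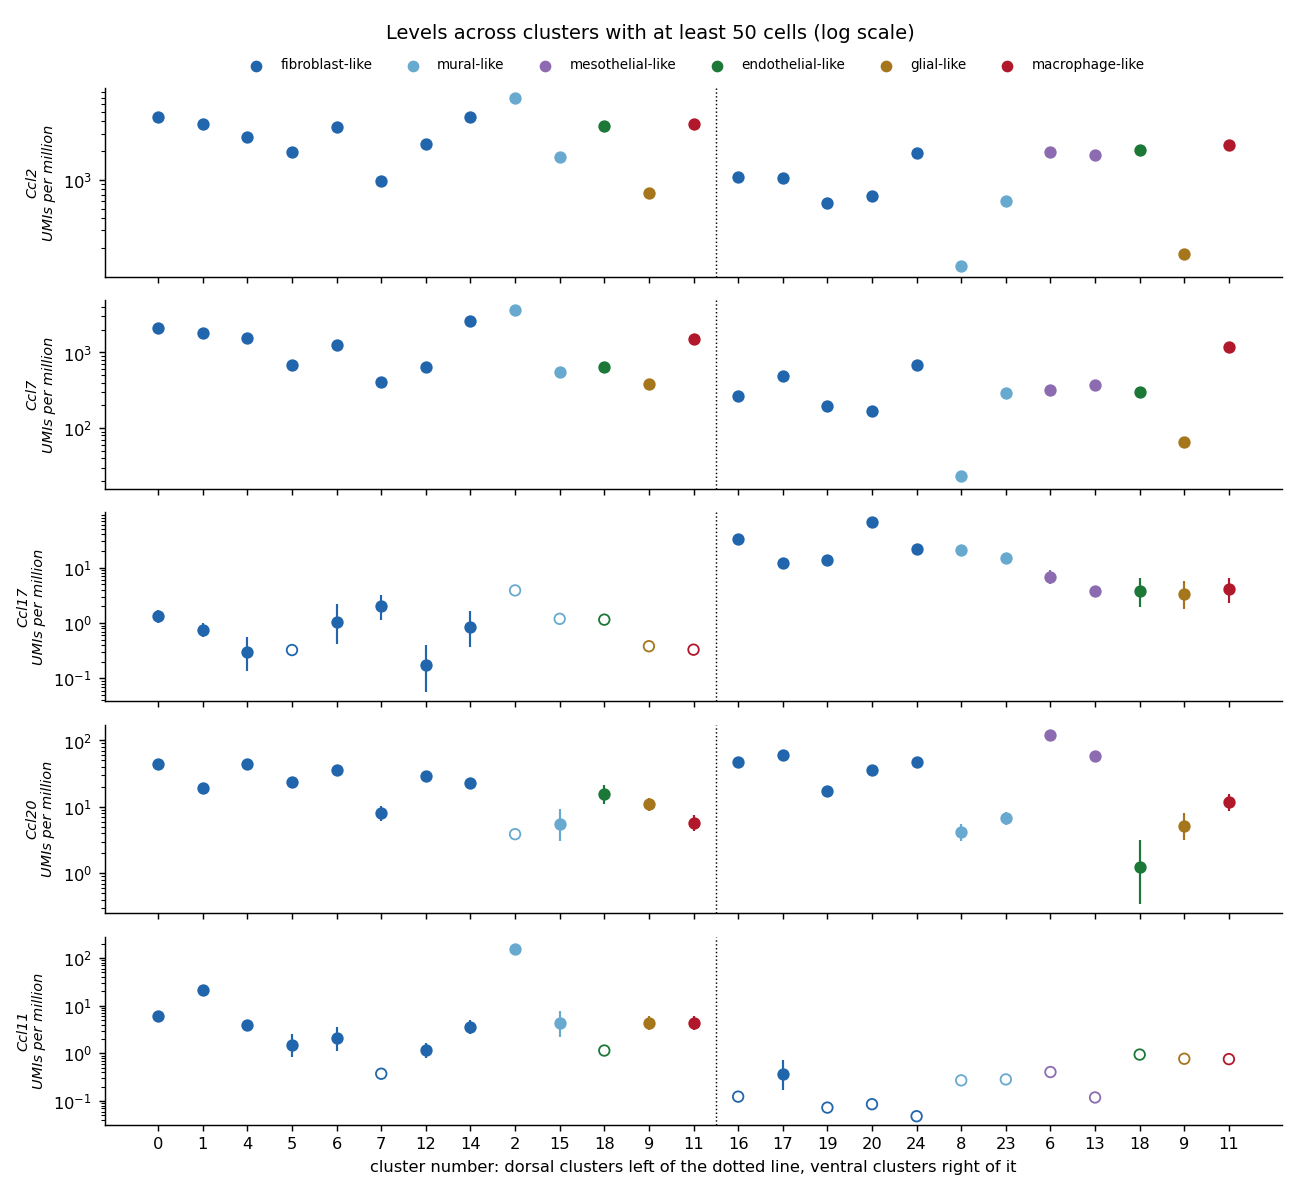
Levels of Ccl2, Ccl7, Ccl17, Ccl20 and Ccl11 (y axes, CPM, log scale) in each cluster with at least 50 cells, dorsal left and ventral right of the dotted line, coloured by class. Bars are 95% counting intervals and open circles mark 3 UMIs or fewer, drawn at the level of 3 UMIs. Ccl2 and Ccl7 trace similar profiles, Ccl17 is high in ventral mesenchymal clusters and Ccl11 reaches 157 CPM in dorsal cluster 2.

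Ccl17, the thymus and activation-regulated chemokine, had a ventral mesenchymal source. It stood at 27.4 CPM in ventral and 0.923 CPM in dorsal mesenchymal cells (5716 and 190 UMIs), a 29.7-fold gap (log2 -4.89, -5.11 to -4.68). Thinned shares of cells with a UMI were 14.4% of ventral and 0.486% of dorsal mesenchymal cells, against 0.513% of ventral glial-like and 2.1% of ventral endothelial-like cells (unthinned 28.3%, 1.69%, 3.59% and 7.69%). The ventral cell-free level was 18.3 CPM, or 26.5 CPM with cell-free barcodes limited to 30 UMIs. Ventral clusters 17 and 19, at 12.4 and 13.6 CPM, lay below both values. How much of the ventral signal was free RNA was not tested. Every ventral mesenchymal cluster exceeded every dorsal one, with 12.4 to 67.2 CPM against 0 to 2 CPM. The top of the range was cluster 20, led by the tendon and valve genes Fmod and Scx, where 27.8% of thinned cells had a UMI. Macrophage-like cells were low, at 0.329 CPM in the dorsal library (3 UMIs, log2 -1.49 against mesenchyme, -3.78 to 0.08) and 4.05 CPM in the ventral one (16 UMIs). Ventral low-fibroblast macrophages had 0.895 CPM (2 UMIs, 30.6-fold lower than mesenchyme, log2 -4.94, -7.98 to -3.08).

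Ccl20, the ligand of Ccr6, was mesenchymal in both domains and also mesothelial-like in the ventral library. With 8 dorsal mesothelial-like cells, that class was not compared between domains. Mesenchymal levels were 30.8 dorsal and 36.9 ventral CPM, 1.2-fold apart, and macrophage-like levels 5.82 and 11.9 CPM. Cell-free levels were 20.8 dorsal and 50.5 ventral CPM, or 19.1 and 37.3 CPM with cell-free barcodes limited to 30 UMIs. The part of free RNA in these values was not tested. Low-fibroblast macrophages had 1.74 CPM (8 UMIs) and 1.34 CPM (3 UMIs), 17.7-fold (log2 -4.14, -5.36 to -3.17) and 27.5-fold (-4.78, -7.06 to -3.23) below mesenchyme, compared with 5.29-fold and 3.1-fold for all macrophage-like cells. Ventral mesothelial-like cells had 72.6 CPM and held 23.4% of the ventral UMIs, and the cycling mesothelial-like cluster 6 reached 120 CPM. Mural-like cells were low, at 3.73 dorsal and 5.44 ventral CPM, against 31.3 and 40.5 CPM in fibroblast-like cells. Unlike Ccl17, Ccl20 was concentrated in few cells: 175 dorsal and 256 ventral cells with 10 or more UMIs held 74.9% and 76.3% of its UMIs. The 80 ventral cells with 10 or more Ccl17 UMIs held 18.9%.

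The promoters of Ccl20 and Ccl17 are shown because both genes were mesenchymal while 1 was found in both domains and the other in the ventral one. Of the members, 5 had an entry in the RefSeq promoter table (GRCm38.p6), and the 250 bases before the start are printed on the gene's strand. In Ccl20 (chr1:83116516-83116765, plus strand) capitals mark a match to the NF-kB consensus.
Ccl20: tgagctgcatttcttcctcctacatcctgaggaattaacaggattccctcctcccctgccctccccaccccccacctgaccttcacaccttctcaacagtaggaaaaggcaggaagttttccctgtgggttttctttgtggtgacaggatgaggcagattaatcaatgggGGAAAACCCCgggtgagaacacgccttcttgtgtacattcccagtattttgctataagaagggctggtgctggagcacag
In Ccl17 (chr8:94810203-94810452, plus strand) capitals mark a match to the STAT6 motif, in which TTC and GAA stand 4 bases apart.
Ccl17: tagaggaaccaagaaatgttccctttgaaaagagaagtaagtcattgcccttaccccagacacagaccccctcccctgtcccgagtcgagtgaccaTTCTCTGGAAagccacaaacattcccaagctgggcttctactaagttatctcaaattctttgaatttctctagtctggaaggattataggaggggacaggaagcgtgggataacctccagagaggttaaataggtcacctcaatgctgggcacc
Both strands were searched, and the NF-kB consensus occurred in 7.25% and the STAT6 motif in 5.85% of 32851 promoters of this length. Neither motif was found in the windows of Ccl12, Ccl6 and Ccl3. Motifs named AP-1, ISRE, PU.1 and TATA were searched as well and are not marked. The PU.1 core occurred in Ccl20, Ccl17, Ccl12 and Ccl3 but not in Ccl6, and in 23.3% of promoters. TATA matched in Ccl12 alone, and AP-1 and ISRE matched in none of the 5 windows. A match describes the letters and shows no binding.

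Ccl11, or eotaxin, was close to absent from the ventral library. Dorsal mesenchymal cells held 1926 UMIs (9.36 CPM) and ventral ones 16 (0.0768 CPM), a 122-fold gap (log2 6.93, 6.23 to 7.74). Cluster 1, led by Tnfsf8, Cxcl13 and Il33, held 1291 of the dorsal UMIs at 21.1 CPM. The 57 cells of mural-like cluster 2 were highest at 157 CPM, with a UMI in 26.3% of thinned cells (15.5 to 39.7). The share was 6.68% in cluster 1 and at most 1.87% in the remaining dorsal mesenchymal clusters. Low-fibroblast macrophages had 0 UMIs in both libraries, which in the dorsal library is at least 14.4-fold below mesenchyme against a floor of 3 counts. The 40 UMIs of all dorsal macrophage-like cells included 34 in 1 cell.

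Ccl5, best known from T cells, came from very few cells. In the dorsal library 13 cells with 10 or more UMIs held 80.5% of its 804 UMIs, among them 10 mesenchymal cells and an endothelial-like cell that alone held 155. In the ventral library 9 such cells held 79.5% of 385 UMIs, of which 6 were macrophage-like cells with 138 UMIs and 1 was a mesothelial-like cell with 108. The class levels rest on these cells. Macrophage-like cells stood at 3.95 dorsal and 41.8 ventral CPM, and mesenchymal cells at 2.79 and 0.465 CPM. A Ccl5 UMI was found in 2.55% (0.833 to 5.85) of dorsal and 9.16% (4.82 to 15.5) of ventral thinned macrophage-like cells, against 0.423% and 0.155% of mesenchymal cells. Barcodes of 4000 to 8000 UMIs, just outside the rule, held Ccl5 at 280 CPM in the dorsal library, where those of 8000 to 12000 UMIs held 1.98 CPM. For Ccl2 the corresponding dorsal values were 2996 and 2796 CPM.

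Among the members at 20 CPM or more, macrophage-like cells of the domains differed by 2-fold or more in Ccl6 and Ccl5. Ccl6 was 3.53-fold higher in dorsal cells (7273 against 2058 CPM) and 3.97-fold higher in dorsal low-fibroblast macrophages (9588 against 2413 CPM). Ccl5 was 10.6-fold higher in ventral cells, on the few cells named above. They were the 1 dorsal-high and the 1 ventral-high member among 7 at the minimum, where 3.49% and 2.92% of all genes passed. Ccl12 was 1.71-fold and Ccl2 1.64-fold higher in dorsal cells, and 1.55-fold and 1.69-fold in low-fibroblast macrophages. Ccl3, Ccl4 and Ccl7 lay close, at 979 and 976 CPM, 1077 and 1189 CPM, and 1452 and 1443 CPM in dorsal and ventral low-fibroblast macrophages. The median log2 ratio of the members was 0.34 against -0.09 for all genes at the minimum, and 0.01 against -0.10 in low-fibroblast macrophages.

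Single low-fibroblast macrophages spread widely. Ccl6 ranged from 1.09 to 265 UMIs per 10000 in dorsal cells, with a median of 73.9 and no cell at 0, whereas the ventral median was 20.5 with 4 of 91 cells at 0. Ccl2 had medians of 32.7 and 15.3, Ccl7 of 11 and 6.98, Ccl3 of 4.99 and 5.04 and Ccl4 of 5.42 and 6.25. Ccl12 split the cells, with medians of 4.02 and 1.97 and no UMI in 19 of 121 dorsal and 21 of 91 ventral cells. The single-cell values of the domains overlapped for each of these genes. Across cells, Ccl2 and Ccl7 went together (Spearman rho 0.74 over 121 dorsal and 0.89 over 91 ventral cells), as did Ccl3 and Ccl4 (0.63 and 0.65) and Ccl2 and Ccl12 (0.71 and 0.62). Ccl6 went little with Ccl12 (0.14 and 0.25) or with Ccl3 (0.07 and -0.01). These coefficients describe cells that share a library and differ in depth.

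**Figure D4:**
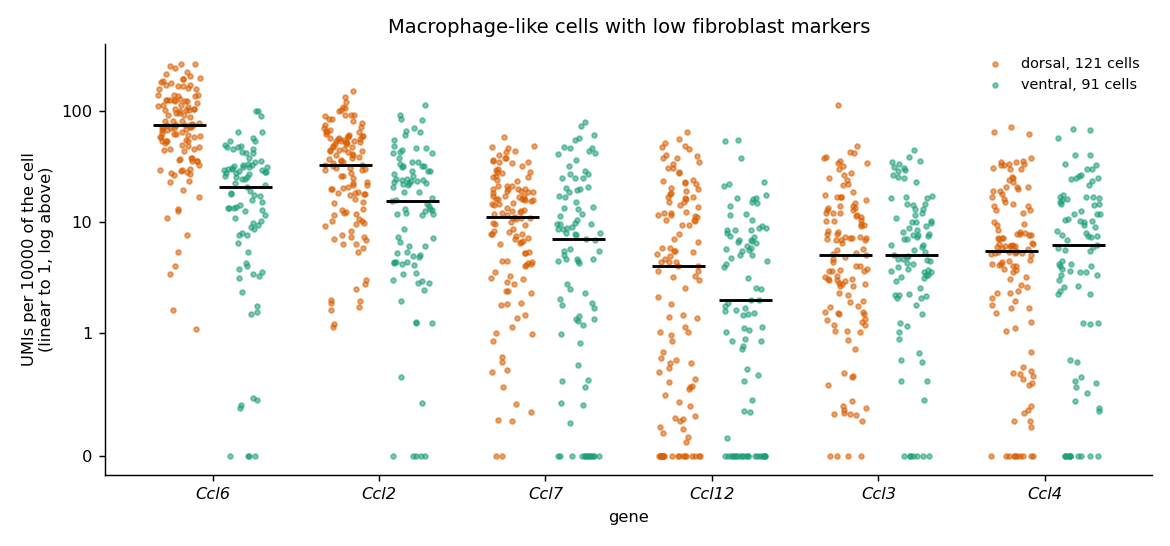
UMIs per 10000 (y axis, linear to 1 and logarithmic above) of 6 members in single low-fibroblast macrophages, 121 dorsal and 91 ventral, with medians as black lines. Ccl6 has medians of 73.9 dorsal and 20.5 ventral, and Ccl3 and Ccl4 have medians within 1 UMI per 10000 of each other between domains.

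Over the 25 points made by each cluster of 50 or more cells in each library, the genes with the profiles nearest to each member were found among 8656 genes by Pearson r of log2(CPM + 5). Ccl2 and Ccl7 were each other's nearest at 0.93. Cd47 and Plk3 (both 0.90) came next for Ccl2, and Tnfaip2 (0.91) and H2-T23 (0.88) for Ccl7. The nearest to Ccl12 were Msr1, Clec4n and Lilr4b, to Ccl3 Fcer1g, Ctss and Clec4n, and to Ccl4 Pld4, Ptprc and Mpeg1, all above 0.98, while Ccl6 had Ccl12, Clec4e and Clec4n at 0.98. In these 4 profiles the 2 macrophage-like points stood far above the rest. Ccl11 was nearest to Mir155hg (0.90), Alpk1 (0.89) and Nr4a3 (0.86), and Ccl17 to Zdhhc2 (0.85), Tmem160 (0.84) and RP24-118K20.1 (0.83). Ccl20 was nearest to Ccnh (0.80), Phgdh (0.76) and Mmab (0.75), and Ccl5 to Acer3 (0.76), Nup214 (0.74) and Rasgef1b (0.73). The points of 1 library share its depth and free RNA.

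None of 14 receptors reached 20 CPM over all cells of either library. Ccr1, a receptor of Ccl3 and Ccl5, was macrophage-like, at 137 dorsal and 59.2 ventral CPM against 0.214 and 0.0288 CPM in mesenchyme. Ccr2, the receptor of Ccl2, Ccl7 and Ccl12, gave 11 dorsal and 52 ventral UMIs in all cells. The decoy receptor Ackr1 was endothelial-like, at 48.1 and 27.4 CPM. In macrophage-like against mesenchymal cells, 1 of 2 receptors at the minimum was macrophage-high by 2-fold or more in the dorsal library, and 2 of 2 were in the ventral one, beside 12.4% and 14.7% of all genes. The other was Ccrl2, an atypical receptor, at 26.2 against 14.4 CPM in the dorsal and 22.5 against 2.54 CPM in the ventral library.

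Among 14 other CC ligands, Ccl9 and Ccl8 were the 2 at the minimum and were 2-fold or more higher in macrophage-like cells in both libraries, beside the same 12.4% and 14.7% of all genes. Ccl9, which lies between Ccl5 and Ccl6, stood at 855 and 679 CPM against 11.7 and 13.8 CPM in mesenchyme. Ccl8, the neighbour of Ccl12, stood at 218 and 39.5 CPM against 1.78 and 0.0336 CPM. Ccl21a, a lymphatic endothelial ligand of Ccr7, stood at 1036 dorsal and 126 ventral CPM in endothelial-like cells.

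NF-kB is the transcription factor family through which cytokines induce many chemokines. Of 25 NF-kB and cytokine genes, 17 reached the minimum within mesenchymal cells, and 9 of these were dorsal-high and 0 ventral-high, beside 4.91% and 5.36% of all genes (median log2 1.04 against 0.02 for all genes). The lists were written with earlier results of these libraries known and are no independent evidence of direction. Tnf and Il1rl1 lay under the minimum there and outside the 17, with few ventral UMIs. The cytokine gene Tnf stood at 1.26 against 0.0528 CPM (23.9-fold), and Il1rl1, the receptor of Il33, gave 147 against 2 UMIs. Nfkbiz at 238 against 35.1 CPM (6.79-fold) and Tnfaip3 at 137 against 22 CPM (6.22-fold) were among the 9 dorsal-high genes. So were the adhesion gene Icam1 at 143 against 28.4 CPM and Nfkb1 at 135 against 43.1 CPM. Within macrophage-like cells, 3 of 20 were dorsal-high and 1, Tnf, was ventral-high at 42.8 against 21.2 CPM, beside 3.49% and 2.92% of all genes. Of 13 type 2 and Ccl17-linked genes, 5 reached the minimum within mesenchyme, with Il33 dorsal-high at 88.7 against 13.3 CPM and 0 ventral-high, beside the same 4.91% and 5.36%. Csf2, a growth factor gene for myeloid cells, stood at 1.35 against 0.144 CPM. Stat6 and Il4ra were close between domains there, at 28 and 29.3 CPM and at 17.4 and 20.9 CPM in dorsal and ventral cells.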

How the data were processed

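The transcriptomes of single cells were measured in 1 library for each domain. The authors deposited raw UMI counts for every barcode, made with Cell Ranger 3.0.2 and mm10 per the submitters' processing notes. The annotation release is not given in the sources used here. Barcodes with at least 8000 UMIs and at most 20% mitochondrial UMIs were kept. They were clustered with scanpy 1.11.5 (2000 variable genes, 30 components, 15 neighbours, Leiden resolution 1.0), leaving out 68 chemokine and receptor genes. A class was given where 3 or more markers, and 50% or more of its list, were detected in 25% of the cluster's cells and enriched 2-fold over other cells (5 CPM added to both). Failing that, 5 fibroblast markers in 50% of cells gave the name fibroblast-like. The name also had to hold in each library with 50 or more of the cluster's cells, which made the 178 dorsal cells of cluster 6 fibroblast-like and its 211 ventral cells mesothelial-like. These naming rules were set after the clusters were seen. Doublets stayed in the main values. Scrublet served as an alternative, marking 7.21% of ventral cells, and since it marked 0% of dorsal cells the 7.14% with the highest scores were removed there.

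UMIs were summed per class and given as CPM with exact Poisson intervals, exact conditional binomial intervals for ratios and Clopper-Pearson intervals for shares, all 95%. A count of 0 was given a floor of 3 counts. Members differing at least 2-fold were counted among genes at 20 CPM or more in either group. TMM factors came from edgeR 4.0.16 and no count model was fitted. The calculations were tested on simulated data. All 10 members were described, the 3 genes of most similar profile (no mitochondrial, ribosomal or provisional names) were named for each with at least 200 UMIs, and up to 4 members of each list with the widest ratio among those with at least 50 UMIs. Other list members (Icam1, Nfkb1, Stat6, Il4ra, Ccr2, Ackr1) were chosen after their values were seen. The members and lists were chosen with earlier results of these data known.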

Additional observations from a re-analysis of the deposited data

Results flagged for a closer look

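The following members had ratios in opposite directions in 2 groups, with both counting intervals away from 0. With 1 library per domain these differences were not tested. Ccl5 was higher in ventral macrophage-like cells (log2 dorsal over ventral -3.40) and in dorsal mesenchymal cells (2.59), a difference of -5.99 that rests on the 13 dorsal and 9 ventral cells with 10 or more UMIs. Ccl4 had -0.06 in macrophage-like and 1.07 in mesenchymal cells, a difference of -1.13. TMM scaling and doublet removal each brought the macrophage-like value to 0 within rounding, so its opposite direction was lost, and the mesenchymal values lay at or below 4.23% of the cell-free level. Ccl7 had a macrophage-like over mesenchymal log2 ratio of -0.05 dorsally and 1.66 ventrally, a difference of -1.71, and the dorsal value became 0.14 with TMM scaling.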

How the results depend on the processing

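No paired analysis was possible because each domain had 1 library. The counts of members 2-fold apart had their main values under UMI minimums of 4000 and 16000, a mitochondrial limit of 10%, TMM scaling, removal of Scrublet doublets and, for the comparisons that use classes, Leiden resolution 2.0 and macrophages chosen by marker UMIs. Without mural-like clusters, an alternative added after seeing the data, the ventral count of macrophage-high members was 6 in place of 7, Ccl2 having a log2 ratio of 0.98. Without the 20 CPM minimum more members enter. Dorsal-high members over all cells became 8 instead of 6, and macrophage-high members in the ventral library 8 instead of 7. Mesenchymal-high members in the dorsal library became 3 instead of 1. Within macrophage-like cells there were 2 dorsal-high and 3 ventral-high instead of 1 and 1. Within mesenchymal cells there were 8 dorsal-high instead of 2, among them Ccl3, Ccl4, Ccl6 and Ccl12 at 5.32% or less of the cell-free level. No share of all genes is set beside the counts without the minimum or without mural-like clusters. These counts are not read as a result about the members. Ccl20 within macrophage-like cells turned from a log2 ratio of -1.03 to 0.37 in low-fibroblast macrophages (8 and 3 UMIs), an alternative added after seeing the data. Removing doublets moved the dorsal macrophage-like over mesenchymal log2 ratio of Ccl11 from -1.09 to -4.99 and that of Ccl20 from -2.40 to -4.11, and the ventral one of Ccl20 from -1.63 to -3.10. TMM moved log2 ratios by up to 0.193. Limiting cell-free barcodes to 30 UMIs moved 12 of 20 cell-free levels beyond their counting intervals, among them ventral Ccl2 from 1621 to 1049 CPM and ventral Ccl7 from 576 to 375 CPM.

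Depth limited Ccl5, Ccl11, Ccl17 and Ccl20 in macrophage-like cells, where each library held 165 UMIs or fewer. A floor of 3 counts equals 0.329 CPM in dorsal macrophage-like cells. Intervals cover counting error only and say nothing of other hearts or cultures.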

Other observations

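Barcodes under the UMI minimum held chemokine UMIs that the rule leaves out, a feature singled out after its values were seen. Among 399 dorsal barcodes with 4000 to 8000 UMIs, 7 held 661 of the 681 Ccl5 UMIs (97.1%) and 2 held 108 of the 114 Ccl17 UMIs (94.7%). In the 7, Ccl22, a chemokine gene of activated dendritic cells, stood at 3480 CPM and Ccr7, the receptor that guides them to lymph nodes, at 2550 CPM, against 9.62 and 15.5 CPM in the other 392 barcodes, and both genes had UMIs in 4 of the 7. Of the other antigen presentation genes examined, Cd74 stood at 850 against 182 CPM, Flt3 at 106 against 0.418 CPM and H2-Ab1 at 79.7 against 46.9 CPM, and Itgax, Xcr1, Clec9a and Cd209a had 0 UMIs in the 7. The T cell receptor genes Cd3e, Cd3d, Cd3g, Trac and Trbc2 had 0 UMIs in them. In the 2 barcodes, Ccr7 stood at 4463 CPM, Ccl22 at 6783 CPM and Cd74, an antigen presentation gene, at 9729 CPM, with 18 UMIs of H2-Ab1, 1 of Flt3 and 0 of Itgax, Xcr1, Clec9a and Cd209a. The 255 ventral barcodes of the same range held 1 Ccl5 UMI and 20 Ccl17 UMIs. With a minimum of 4000 UMIs the pooled log2 ratio of dorsal over ventral was 2.08 for Ccl5 in place of 1.21, and -4.11 for Ccl17 in place of -4.75.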
